A study of Mus musculus with 6 samples.

Results

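The 268 consensus regions are the genomic intervals that the authors of a Bloodlinc occupancy study retained above their thresholds. The series also holds 6 peak lists with 39762 peaks in all, those of the controls and the input included. Bloodlinc, also called alncRNA-EC7, is a long noncoding RNA from a super-enhancer, and it was mapped by ChIRP-seq, in which biotinylated oligonucleotides tiled along an RNA pull it out of crosslinked chromatin together with the DNA it touches. The cells were MEL, a mouse erythroleukaemia line that matures towards red cells in dimethyl sulfoxide (DMSO). All 6 libraries carry the label of 5 days in 2% DMSO. They comprise a pulldown whose label names no probe set, pulldowns with the even and with the odd probes, an RNase control, a no-probe control, and the input. The names of the input peaks carry a day 0 tag, against its label. Each condition has 1 library, so no spread between cultures can be given and no test across replicates was possible.

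The members were chosen by the authors from these same measurements. Each of the 268 deposited intervals equalled the stretch common to 1 pulldown peak, 1 even peak and 1 odd peak, and no such 3-way intersection was missing from the deposited list. The positions and scores of the pulldown, even and odd peaks therefore belong to the choice of members and are given below as descriptions, without tests. The score is the authors' whole number for each peak. No source used here gives its scale, so scores were compared only between peaks of the same list. Read counts are not part of the lists, and the depth is unknown.

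As background, long noncoding RNAs of enhancers can act on neighbouring genes in cis or, when they leave their own locus, at distant chromatin in trans. Bloodlinc is known from erythroid cells, where its super-enhancer neighbours Slc4a1, the gene of the band 3 anion exchanger of the red cell membrane. In ChIRP the probes are split into an even and an odd pool that share the target RNA but no oligonucleotide. DNA caught by a probe itself, rather than through the RNA, should then differ between the pools, and this is why an intersection of the pools is taken. No mm9 genome or annotation was used here, so the regions are named by position, counted from 1 in mm9, and the genes at them are not given.

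The consensus came from 267 of 517 pulldown peaks, which is 51.6% of the pulldown list. Of all 517 pulldown peaks, 60.2% met an even peak by at least 1 bp and 91.1% met an odd peak. Among even peaks, 15.4% met an odd peak, and among odd peaks 13.5% met an even peak. Every pulldown peak that met both pools gave a region, so no further threshold on the pulldown list separated members from non-members. Of the 250 pulldown peaks outside the consensus, 204 had an odd partner alone, 44 had an even partner alone, and 2 had neither. No label states if the pulldown is its own library or pools the even and odd reads. In the latter case these overlaps would not compare separate captures.

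Members and the other pulldown peaks had nearly the same median pulldown score. The median score of the 267 pulldown peaks that gave a region was 825, with quartiles of 744 and 934.5. The 250 peaks outside had a median of 826.5 with quartiles of 760.75 and 922. Split by pulldown score, the lowest 25% of peaks (633 to 752) gave 70 of 130 peaks to the consensus, which is 53.8% (exact 95% binomial interval 44.9% to 62.6%). The highest 25% (929 to 4188) gave 69 of 129, which is 53.5% (44.5% to 62.3%). In between, the shares were 51.2% (42.2% to 60.1%) and 48.1% (39.2% to 57.0%). These intervals cover only the counting of peaks of 1 library, and the shares were not tested against each other. From the lowest to the highest of these bins, the share with an even partner was 70.0%, 59.7%, 51.9% and 58.9%. The share with an odd partner was 83.8%, 90.7%, 96.1% and 93.8%. The lowest bin thus had the largest share of even partners and the smallest share of odd partners.

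Members and non-members shared the same lower end of the pulldown list. The 3 lowest regions were chr18:88663164-88663661 with a pulldown score of 633, chrX:126937813-126938232 with 635 and chr7:108851228-108851647 with 637. The 3 lowest pulldown peaks outside the consensus were chr5:25278858-25279401 with 633, chr15:37016731-37017277 with 643 and chr16:56079448-56080003 with 651. At the upper end, 3 peaks without a region reached scores of 2840 (chr16:56017383-56018110, rank 3), 1759 (chr2:180495977-180497078, rank 6) and 1696 (chr10:107637761-107638241, rank 7). The first of these had only an odd partner, and the other two had only an even partner. These upper examples were picked after their values were seen.

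The regions were narrow and alike in size. Their width ranged from 322 to 1588 bp, with a median of 479 bp and quartiles of 435 and 521 bp. Their pulldown parents had a median width of 564 bp, their even parents 559 bp and their odd parents 490.5 bp. In all, the regions covered 129.7 kb of the 158.9 kb spanned by their pulldown peaks, or 81.6%. The consensus and odd curves in the plot of widths therefore lie close together below 500 bp, and the even and pulldown curves lie close together to their right.

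**Figure D1:**
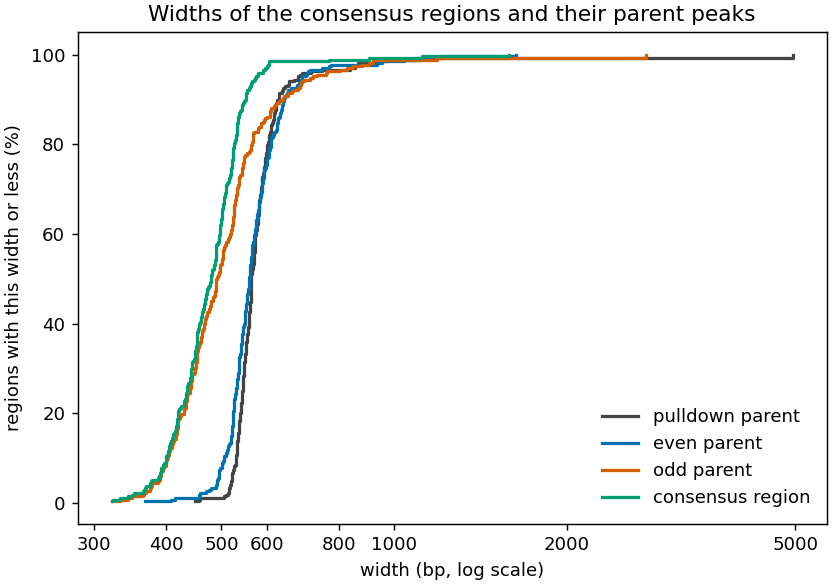
Cumulative share of the 268 regions (y axis, percent) by width in bp (x axis, log scale), for the regions and for the pulldown, even and odd peaks they came from. Median widths were 479 bp for the regions, 490.5 bp for odd, 559 bp for even and 564 bp for pulldown parents.

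Trimming fell on the pulldown and even peaks, and the odd peaks mostly passed whole. A region kept a median of 84.1% of its pulldown peak (quartiles 75.2% and 91.3%) and 85.0% of its even peak (78.1% and 91.7%). The median share kept of the odd peak was 100%, with a lower quartile of 95.7%. In bp, the median loss over both ends was 90 for pulldown peaks, 86 for even peaks and 0 for odd peaks. A whole odd peak was retained in 154 of the 268 regions (57.5%), a whole even peak in 13 (4.85%) and a whole pulldown peak in 8 (2.99%). The odd parent was narrower than the even parent in 218 regions. Over the whole lists the odd peaks were not narrower, with median widths of 442 bp for odd and 436 bp for even peaks. The pattern was not particular to the regions. In the 2523 other overlapping pairs of an even and an odd peak, the overlap kept a median of 84.8% of the even peak. It kept 100% of the odd peak at the median. That overlap leaves the pulldown peak out of the cut.

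The edges show the same. Of the 536 starts and ends, 392 (73.1%) coincided with an edge of the odd peak, 77 (14.4%) with one of the pulldown peak and 75 (14.0%) with one of the even peak, and 8 of these edges were shared by more than 1 list. The sides were alike, with 191 starts and 201 ends set by the odd list. In 189 regions (70.5%) the odd peak lay wholly inside the even peak, against 21 with the even peak inside the odd. Nesting of the odd peak in both the even and the pulldown peak was found in 154 regions. The full order, odd inside even inside pulldown, held in 56 (20.9%).

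How far a region was trimmed went with the score of its odd parent. In the 89 regions with the lowest odd scores (median 949), the odd peak was 425 bp wide at the median and set 161 of 178 edges (90.4%). There the region kept a median of 76.9% of its pulldown peak. In the next 89 (median odd score 1487), the odd peak was 489 bp wide and set 80.9% of edges, and 85.0% of the pulldown peak was kept. In the 90 with the highest odd scores (median 2488), the odd peak was 546.5 bp wide and set 87 of 180 edges (48.3%), and 90.3% was kept. The pulldown parents changed little in width across these classes, from 559 to 562 to 575.5 bp. The other scores rose as well, with medians of 2912, 3267 and 3610 (even) and 801, 816 and 878.5 (pulldown). Across the 268 regions, Spearman's rho with the share of the pulldown peak kept was 0.516 for the odd score and 0.285 for the even score. For widths, rho was 0.74 between odd score and odd width and 0.64 between odd score and region width. It was 0.39 between even score and region width and 0.21 between pulldown score and region width. These are descriptions over positions that share the same libraries, and a peak's score and width come from the same signal.

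The 3 parents of a region were nearly concentric. The midpoints of the even and odd peaks lay a median of 17 bp apart (quartiles 7 and 33.625 bp), and 226 regions had an offset of at most 50 bp. The midpoint of the region lay a median of 17.5 bp from that of the pulldown peak. Other overlaps of the pools were centred as closely. For the 2523 other overlapping pairs of an even and an odd peak, the median offset was 17.5 bp (quartiles 8 and 33 bp), and in 70.3% of them the odd peak lay inside the even peak. The other pairs were narrower, with median widths of 527 bp (even) and 450 bp (odd), and their overlap had a median of 435 bp against 484 bp for the even-odd overlap of the consensus pairs. Their odd peaks scored a median of 1027, against 1487 in the consensus, and their even peaks 2403 against 3256.

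An offset over 100 bp was found in 18 regions, and the most trimmed regions were among them. At chr4:134571354-134571796, a pulldown peak of 930 bp (score 790) and an even peak of 1039 bp met an odd peak of 443 bp, which left 47.6% of the pulldown peak and 42.6% of the even peak. At chr10:107637260-107637592, the odd peak was 333 bp and the even peak 1087 bp, with midpoints 268 bp apart. That even peak ran on into the next pulldown peak, the rank 7 peak named above, which begins 73 bp after the first one ends and has no odd partner. It is the only region whose even or odd parent also met a pulldown peak other than its own. A pair of pulldown peaks with scores of 1902 and 1696 thus lay under 1 even peak, and only the one with an odd partner entered the consensus.

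At the other extreme, 8 regions equalled their whole pulldown peak. The first 3 in genome order were chr1:110367748-110368310 (563 bp, pulldown score 958), chr9:7280923-7282040 (1118 bp, score 850) and chr9:23812447-23813026 (580 bp, score 716). The second of these was also the second widest region of all, with an even peak of 1206 bp and an odd peak of 1187 bp around it. The third widest was chr5:42332501-42333405, at 905 bp. The narrowest were chr4:135358742-135359063 at 322 bp, chr4:131817512-131817834 at 323 bp and the chromosome 10 region just described at 333 bp. All of the narrowest had odd parents of low rank, with odd scores of 725, 728 and 949.

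The most trimmed pulldown peak was that of the highest score, on chromosome 11. It was 4945 bp wide, and its 2 regions, chr11:102235676-102237263 and chr11:102237409-102237943, kept 32.1% and 10.8% of it. It was the only pulldown peak that gave more than 1 region. A gap of 145 bp between 2 even peaks split the consensus here, whereas a single odd peak of 2744 bp ran across the gap. The first 2141 bp of the pulldown peak held no even peak, and the first 2181 bp held no odd peak. In that stretch lay a no-probe peak (score 52), from 1624 to 1805 bp after the start, and an RNase peak (score 50), from 613 to 741 bp. Control peaks and the peaks of the probe pools did not overlap, as the map of this locus shows. Whether this is the transcribed Bloodlinc locus itself was not tested, since no mm9 annotation was used.

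**Figure D2:**
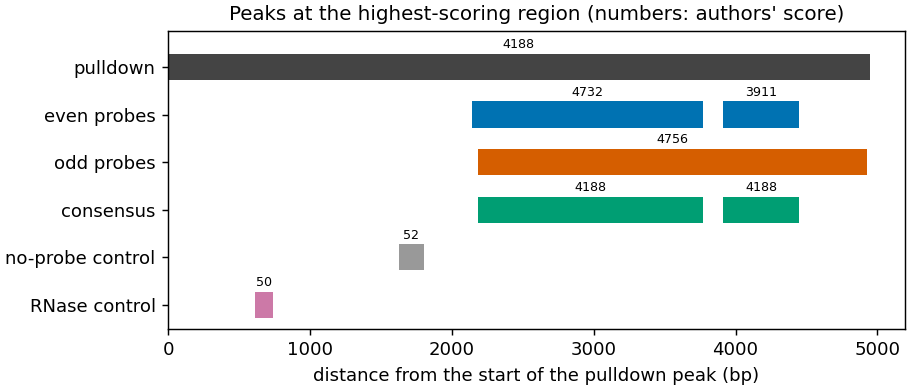
Peaks of each list at the highest-scoring pulldown peak on chromosome 11, as bars to scale along the distance in bp from the start of the pulldown peak, with the authors' score above each bar. The 2 consensus regions fill the right part of the pulldown peak, and the no-probe and RNase peaks lie to their left.

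Even and odd probes ranked the regions differently. The even parent was in the highest 10% of the even list in 243 of 268 regions (90.7%), where 10.1% of all even peaks lie (ties included). The odd parent was in the highest 10% of the odd list in 34 regions (12.7%), against 10.1% of all odd peaks. The even parent was in the highest 1% of its list in 79 regions, and the odd parent in 5 regions. The pair of regions on chromosome 11 shared the same odd peak and both count here. The median even parent stood 1.91% from the top of its list, and the median odd parent 34.5%. By these percentages, 257 regions (95.9%) ranked higher in the even list and 11 in the odd list. A high even score was not particular to the regions. The 2523 other overlapping pairs had a median even score of 2403, against 1071.5 over all even peaks. Their median odd score was 1027, against 1145 over all odd peaks. When ranks were taken only among even and odd peaks that meet the other pool, 69.4% of regions ranked higher in the even list.

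No region ranked below the top 50% in both lists, and 24 ranked in the highest 10% of both. The 11 regions that ranked higher in the odd list lay below the line of equal rank in the plot of ranks. They included chr11:102237409-102237943, which stood near the top of both lists, at 0.28% (even) and 0.04% (odd). For 5 of the 11 the even peak was below the top 50% of the even list. These 5 were picked with their values known, and are chr5:24172237-24172588, chr10:7381985-7382440, chr15:9083132-9083499, chr17:56893942-56894356 and chr19:52780194-52780598. Their even scores ran from 664 to 840 and their odd scores from 3072 to 4317, whereas the medians over all regions were 3256 and 1487. In these regions the even peak was the narrow one, at 368 to 491 bp against 504 to 684 bp for the odd peak, and it set 8 of the 10 edges. Their pulldown scores ran from 780 to 1494.

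The largest rank differences in favour of the even list were at chr15:22966447-22966842, chr2:153194881-153195285 and chr5:30806900-30807289. The first had the 5th highest even peak of 18114 (score 4322) and an odd peak at rank 18620 of 20596 (score 705). The second had even rank 791 and odd rank 19480, and the third had even rank 1193 and odd rank 19730. In each of these the region was the whole odd peak, of 396, 405 and 390 bp. In favour of the odd list, the largest differences were at chr15:9083132-9083499 (even rank 16546, odd rank 336), chr5:24172237-24172588 (16162 and 274) and chr10:7381985-7382440 (15255 and 206). In these 6 regions most edges were thus those of the lower-ranked peak.

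**Figure D3:**
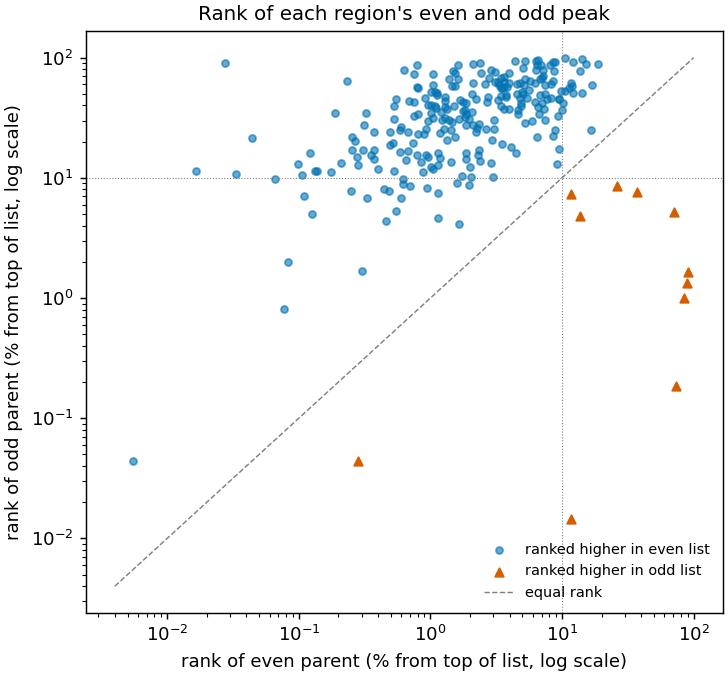
Rank of the even parent (x axis) against that of the odd parent (y axis) for the 268 regions, each as the percent from the top of its list on log scales, with dotted lines at the highest 10% and a dashed line of equal rank. Most points lie above the line, to the left of the highest 10% of the even list, and the 11 triangles are the regions that ranked higher in the odd list.

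Scores of the 3 lists rose together only loosely over the regions. Spearman's rho was 0.43 between even and odd scores, 0.34 between pulldown and even scores and 0.28 between pulldown and odd scores (268 regions, description only). The region with the highest pulldown score of each chromosome gives an impression of this spread. These 21 regions had pulldown scores from 684 to 4188, with a median of 1173. In 20 of them the even peak was in the highest 10% of its list, and in 5 the odd peak was. Over all 268 regions these shares were 90.7% and 12.7%.

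The leading regions of several chromosomes stood nearer the top of the even list than of the odd list, as did 95.9% of all regions. At chr4:120101867-120102399 (pulldown score 1166) the even peak ranked 8th and the odd peak 4412th. Similar were chr13:99662089-99662532 (1007, even rank 12, odd rank 2003), chr2:152219170-152219623 (1173, 22 and 3340), chrX:11631515-11632114 (1078, 24 and 2328) and chr6:30039914-30040438 (1083, 32 and 2294). Further leaders were chr3:100627058-100627661 (978, 50 and 3061), chr16:17296391-17296943 (1177, 112 and 1818), chr18:6465432-6465956 (849, 126 and 1773) and chr9:14773966-14774447 (1181, 146 and 4808). All of these, listed together for their even rank, stood in the highest 1% of the even list. Those of chromosomes 13, 16 and 18 stood also in the highest 10% of the odd list.

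Other leaders ranked lower with the even probes. They were chr5:152037572-152038161 (pulldown score 1307, even rank 233, odd rank 6495), chr8:87450954-87451461 (1300, 259 and 5180), chr1:138355772-138356266 (1185, 360 and 2546) and chr14:21779679-21780131 (955, 599 and 12105). Lower still were chr7:73413503-73413954 (1070, 871 and 12693) and chr17:31531793-31532254 (984, 1038 and 13268). The only region of chromosome Y, chrY:477541-477940, had the lowest score of the 21 (684, even rank 1250, odd rank 17754). Among the leaders, only chr12:83663888-83664657 (3081, even rank 2135, odd rank 3) had an even peak outside the highest 10%. Unlike these, the leaders of chromosomes 10, 11, 15 and 19 stood in the highest 1% of the even list. They were chr10:107637260-107637592 (1902, even rank 42, odd rank 13209) and chr11:102235676-102237263 (4188, 1 and 9). The others were chr15:80520714-80521249 (1427, 38 and 2753) and chr19:53894527-53894992 (1799, 59 and 7102).

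Regions with another region within 1 Mb, measured from edge to edge, numbered 103 of 268, or 38.4% (exact 95% interval 32.6% to 44.5%). They formed 40 groups on 17 chromosomes, with 25 groups of 2, 9 of 3, 4 of 4 and 2 of 5, and 165 regions stood alone. The 250 pulldown peaks outside the consensus, chained in the same way, had a neighbour of their own kind in 82 cases, or 32.8% (27.0% to 39.0%), in 34 groups of which the largest also held 5. Neighbours are counted in pairs and chains, so the intervals understate the error, and the difference was not tested. Over all 517 pulldown peaks, 53.2% had another within 1 Mb.

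The shares at other distances were as follows. Within 100 kb, 20 regions (7.46%) and 27 outside peaks (10.8%) had a neighbour. Within 500 kb the shares were 23.9% and 24.0%, and within 2 Mb they were 57.8% and 125 of 250. The median distance to the nearest region was 1.43 Mb, against 1.96 Mb between outside peaks. The sets differ in size, with 268 regions and 250 outside peaks, and a larger set has closer neighbours. The regions also include 2 intervals cut from 1 pulldown peak. The distances and shares were not adjusted for this. The nearest other pulldown peak of a consensus peak was itself in the consensus in 142 of 266 cases (53.4%). For outside peaks it was in the consensus in 115 of 250 (46.0%), and 51.6% of the pulldown list is in the consensus.

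**Figure D4:**
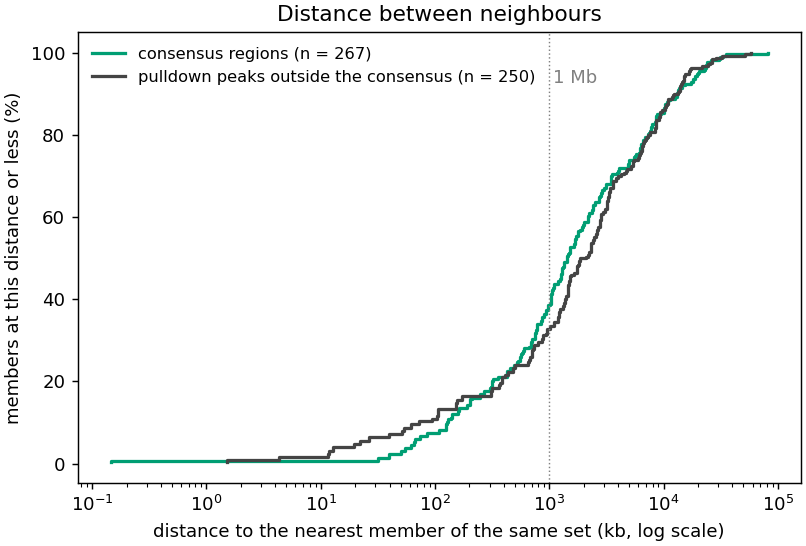
Cumulative share (y axis, percent) of the consensus regions and of the pulldown peaks outside the consensus by the distance to the nearest member of the same set (x axis, kb, log scale), with a dotted line at 1 Mb. The curves cross near 500 kb, and at 1 Mb they stand at 38.4% of all 268 regions and 32.8% of 250 outside peaks.

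Grouped and single regions had similar medians, and the difference was not tested. The 103 regions in groups had median scores of 825 (pulldown), 3188 (even) and 1408 (odd) and a median width of 473 bp. The 165 single regions had 825, 3282 and 1530, with a width of 483 bp. Groups spanned a median of 579 kb, from 62.8 kb to 1813 kb. In 33 of the 40 groups no pulldown peak outside the consensus lay within the span, and the other 7 groups held 1 each. Of the 34 groups of outside peaks, 31 held no consensus pulldown peak within their span. The spans summed to 27163 kb for the consensus groups and 17913 kb for the outside groups.

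The 3 closest pairs were the 2 intervals on chromosome 11, a pair on chromosome 5 and a pair on chromosome 9. On chromosome 5, chr5:122452739-122453261 and chr5:122485237-122485731 lay 32.0 kb apart with pulldown scores of 742 and 744. Their even scores were 3513 and 3282 and their odd scores 1325 and 1285. On chromosome 9, chr9:65382079-65382587 and chr9:65422399-65422898 lay 39.8 kb apart with pulldown scores of 1126 and 1116 and odd scores of 2499 and 2592. Their even scores were 3705 and 3075. Within both pairs the pulldown and odd scores were close in value. That did not hold for every near pair. The region chr9:7280923-7282040 and its neighbour 61.3 kb away had pulldown scores of 850 and 670 and odd scores of 2109 and 1006.

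Of the 6 groups with 4 or more regions, those with 5 were on chromosomes 5 and 9. The first ran from chr5:121427073 to 122485731 (1059 kb) and ended with the close pair just named. Before it came chr5:121427073-121427624 (pulldown score 837), chr5:121637157-121637610 (836) and chr5:121722133-121722611 (695). Its even scores were uniform, from 3282 to 3513, and its odd scores ran from 915 to 2258. The span was drawn around its 5 regions and held no pulldown peak outside the consensus. It held 18 even and 19 odd peaks, of which 7 even peaks met an odd peak.

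The other group of 5 was the longest of all, from chr9:64795281 to 66608200 (1813 kb). It held the close pair, chr9:64795281-64795702 (774), chr9:66182200-66182548 (727) and chr9:66607712-66608200 (866). Its even scores ran from 2177 to 3705 and its odd scores from 803 to 2592. The span held 1 pulldown peak that gave no region, and 21 even and 28 odd peaks, of which 5 even peaks met an odd peak.

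The remaining groups of this size held 4 regions each. On chromosome 9, chr9:22941271-22941840 (790), chr9:23608219-23608628 (787), chr9:23812447-23813026 (716) and chr9:24135950-24136498 (960) spanned 1195 kb with 29 even and 16 odd peaks. The last of them had both a high even peak (score 4159, rank 14) and a high odd peak (3898, rank 168). On chromosome 15, chr15:79720763-79721267 (854), chr15:79852334-79852778 (1013), chr15:80520714-80521249 (1427) and chr15:80586212-80586708 (782) spanned 866 kb. There the even scores ran from 3180 to 3965, and the third region led its chromosome.

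On chromosome 3 the group was the most compact of the 6, at 510 kb, with chr3:101886857-101887402 (823), chr3:101942465-101942997 (791), chr3:102081433-102081987 (877) and chr3:102396652-102397210 (953). Its odd scores, from 1435 to 2424, spanned the narrowest range of the 6 groups. The second chromosome 5 group, from chr5:150771018 to 152038161 (1267 kb), had odd scores from 1060 to 2221 and pulldown scores from 747 to 1307. Its regions were chr5:150771018-150771506 (828), chr5:151663369-151663802 (800), chr5:151730556-151731079 (747) and chr5:152037572-152038161 (1307). Over the 6 spans together lay 113 even and 113 odd peaks, of which 32 even peaks met an odd peak, and 28 pulldown peaks, of which 2 gave no region. The spans were drawn around 26 regions, so these counts follow largely from that choice. Over the whole lists, 15.4% of even peaks met an odd peak and 51.6% of pulldown peaks gave a region.

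**Figure D5:**
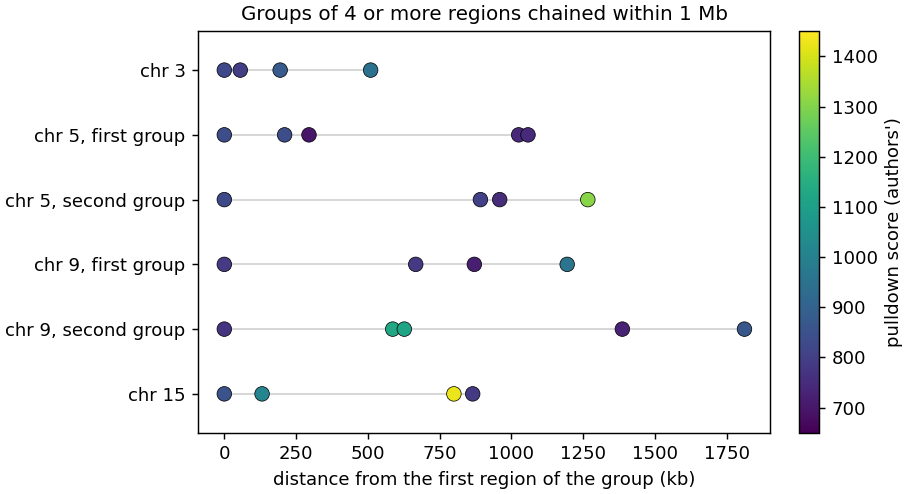
Regions of the 6 groups with 4 or more members, placed by their distance in kb from the first region of the group (x axis) and coloured by the authors' pulldown score. Adjacent regions of a group lay from 32.0 kb to under 1 Mb apart, and scores of 1013 or more occurred in the second chromosome 5 group, the second chromosome 9 group and the chromosome 15 group.

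Further even and odd peaks lay beside many regions. Within 10 kb of the pulldown peak, 95 of 268 regions (35.4%, 29.7% to 41.5%) had an even or odd peak other than those it met. Of these, 54 had an even peak and 51 an odd peak. For the pulldown peaks outside the consensus the share was 30.8% (25.1% to 36.9%), and the difference was not tested. Within 1 kb the shares were 4.85% and 4.40%.

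The controls give the background of the method. No region overlapped any of the 124 no-probe, 141 RNase or 270 input peaks. On chromosome 11 this followed from the trimming, as the highest-scoring pulldown peak spanned a no-probe and an RNase peak. The median distance to the nearest no-probe peak was 10.02 Mb, to the nearest RNase peak 7.74 Mb and to the nearest input peak 14.3 Mb. Regions on chromosomes without such a peak were left out, 1 for RNase and 10 for the input. The outside pulldown peaks had medians of 11.3, 7.81 and 14.0 Mb. Their lowest distances were 0 Mb (overlap or contact) for no-probe, 0.00905 Mb for RNase and 0.0573 Mb for input peaks. For the regions the lowest were 0.000376, 0.00144 and 0.0479 Mb. Apart from the pair on chromosome 11, no region lay within 10 kb of a control peak. Within 100 kb, 4 regions had a no-probe peak, 6 an RNase peak and 2 an input peak. One of them, chr9:23608219-23608628 in a group of 4, had both a no-probe peak at 91.8 kb and an RNase peak at 44.8 kb. The first and second region of the chromosome 15 group, 131.066 kb apart, had their nearest input peak at 83.1 and 47.9 kb. This may be the same input peak. The counts within 100 kb were not taken for the outside peaks, so they do not set the regions apart from other pulldown peaks.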

How the data were processed

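ChIRP-seq peak lists of 6 libraries of MEL cells and 1 consensus list were used. Per the submitters' processing notes, Bowtie2, bedtools and build mm9 were used. Their roles, versions, the caller and any thresholds are not stated. The deposited files hold the authors' whole-number score per peak, with no read counts, and it is not stated whether the pulldown is a separate capture or pools the even and odd reads. Starts were converted to count from 1. Each region was joined to its parent peaks by an overlap of 1 bp or more. Neighbours were chained by gaps of up to 1 Mb. Shares have 95% Clopper-Pearson intervals, for counting error only. Named regions are the highest of each chromosome, the 3 extremes of width, share kept, rank difference and low score, split peaks, the 3 closest pairs and groups of 4 or more. The members, lists and measures were chosen with earlier results of these data known. Python 3.11.15, numpy 2.4.6, pandas 2.3.3, SciPy 1.17.1 and matplotlib 3.10.9 were used. Overlap and chaining were tested on simulated intervals. Genes at the regions were not analysed here.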

Additional observations from a re-analysis of the deposited data

How the results depend on the processing

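No paired analysis was possible because each condition has 1 library and no result comes from a test. Of 52 recomputed values, 27 moved and are given here. A share counted as moved when it left the 95% binomial interval of the reported share, a count when it changed by over 1.5 times, and a median when its first 3 digits changed. By these unequal tolerances the other 25 did not move, although some differ slightly. With the 135 regions of higher pulldown score, the median width was 489 bp, the share kept was 83.9% (pulldown) and 86.2% (even), the even-odd offset was 16 bp, 25.9% had a neighbour within 1 Mb among fewer regions, and the median distances to no-probe, RNase and input peaks were 9.65, 6.53 and 18.6 Mb. Without chromosome 11 the width was 477 bp, the pulldown share kept 83.9% and the distances 10.1, 7.98 and 14.7 Mb. With 1 interval per pulldown peak the pulldown share kept was 84.2% and the distances 10.1, 7.78 and 14.4 Mb. With the higher-scoring 50% of control peaks, which leaves fewer peaks, the distances were 18.5, 12.2 and 29.0 Mb. An edge tolerance of 10 bp gave the odd list 79.7% of edges. Ranks among shared peaks put 69.4% of regions higher in the even list. A neighbour was within 100 kb for 7.46%, within 500 kb for 23.9% and within 2 Mb for 57.8% of regions, and further probe peaks lay within 1 kb of 4.85% and within 100 kb of 97.0%. Requiring the region to cover 50% of its parent kept 265 (pulldown), 265 (even) and 267 (odd) regions.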
